A study of Homo sapiens with 2 samples.

Results

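Broad PAX5 peaks are enriched regions of at least 1000 bp whose summit stayed below a pileup of 100, on chromosomes 1 to 22 and X. They were found by a rule on the length and pileup columns of the deposited peak table, which 592 peaks met out of 21361 listed in all, or of 21313 on these chromosomes. Pileup is the number of ChIP reads, extended to fragment length, that cover the summit after scaling to the depth of the control. A pileup of 100 corresponds to 182 reads as sequenced. The data come from ChIP-seq, in which an antibody pulls down chromatin bound by a protein and the DNA is sequenced. Chromatin was from NALM6, a long-established line of human leukaemia cells arrested at a B-cell precursor stage. Untreated cells were kept for 4 days in RPMI medium with 10% serum and 2 mM glutamine and no phenol red, per the labels. There are 2 samples: a PAX5 ChIP with an antibody from Abcam, and an input control, for which no antibody was used. The control's title bears the unexplained name RXL, although its cell line is given as NALM6. The ChIP alignment is a pool of an unstated number of libraries, so the spread between libraries is not known. No test between samples was possible. Intervals below cover counting error among peaks of this 1 list only, and are too narrow where peaks lie close together.

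PAX5, a transcription factor with a paired DNA-binding domain, commits lymphoid progenitors to the B-cell lineage and keeps them there, switching on B-cell genes and repressing genes of other lineages. Like most sequence-specific factors it contacts a short stretch of DNA, so a single occupied site gives a compact peak not much wider than a sequenced fragment. A long peak is called where enrichment stays above the threshold over a longer stretch, as it can where several sites lie side by side. The peak caller was run in its narrow mode, per the file headers, so "broad" refers here to the called length and not to a separate broad-region call. The peaks could not be placed relative to genes or motifs, because the files are on hg19 and no sequence or gene annotation of that build was used here. All positions are on hg19 and count from 1.

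Most broad peaks were little longer than the minimum, and a small group was much longer. The median length was 1186 bp (95% binomial interval of the median 1161 to 1204), against 374 bp for the 20384 narrower peaks under the same pileup ceiling. Of the 592 broad peaks, 360 (60.8%) were under 1250 bp, 99 reached 1500 bp, 33 reached 2000 bp and 5 reached 3000 bp. They made up 2.78% of the peaks on these chromosomes and 8.09% of the bases under peaks, 0.773 Mb in all. Length and pileup chose these peaks, so both are given as description. The 3 peaks just inside the length limit measured 1000 bp with pileups of 73.7, 59.4 and 51.2. The 3 just outside measured 999 bp with pileups of 79.2, 69.9 and 68.2. At the pileup ceiling, the 3 nearest peaks inside had 181 reads each, and the 3 nearest outside had 182, 183 and 183.

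The widest broad peak spanned 6464 bp on chromosome 22 from 48975099 to 48981562. Its summit held 113 ChIP reads (exact Poisson 95% interval 93.1 to 136), a pileup of 62.2. Control background, given here and below on the scale of pileup, was 8.10. With the caller's pseudocount of 1 added to both pileup and background, the fold enrichment is 6.94. The next widest peaks were neighbours on chromosome 20. One covered 5634 bp, 61448573 to 61454206, and had 73 reads and a fold of 7.08. The other began after a gap of 80 bp, covered 3671 bp up to 61457957 and had 133 reads and a fold of 5.30. On chromosome 22, a 3636 bp peak between 23263504 and 23267139 had a fold of 6.33. The fifth, 3143 bp on chromosome 7 from 44104904 to 44108046, was also the peak with the lowest fold of all broad peaks, 2.23. It had 55 reads, a pileup of 30.3, over a background of 13. The 33 peaks of at least 2000 bp had a median pileup of 52.8, against 57.2 over all broad peaks. The rule leaves out stronger summits, and the 93 long peaks at or above the ceiling reached 6055 bp.

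**Figure D1:**
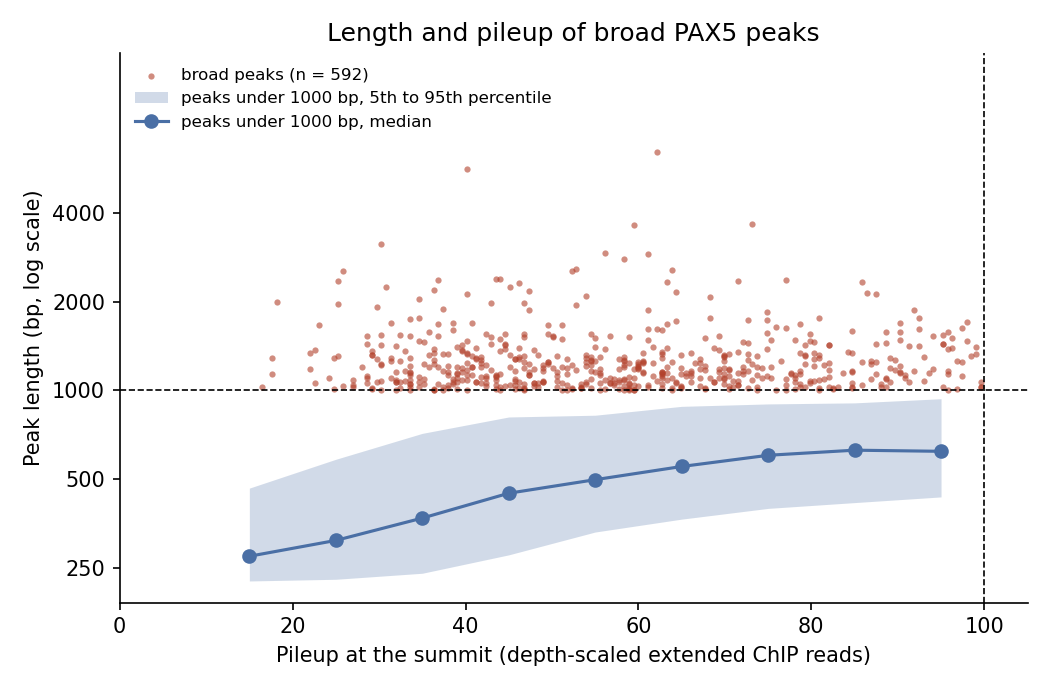
Each red point is a broad peak, with its pileup at the summit (depth-scaled extended ChIP reads) on the x axis and its length in bp on a log y axis. Blue points and the band give the median and the 5th to 95th percentile of length of peaks under 1000 bp in pileup bins of 10, and dashed lines mark the limits of 1000 bp and a pileup of 100. The median length of the narrower peaks climbs from 273 bp in the lowest bin to 626 bp between 80 and 90, while that of the broad peaks stays between 1161 and 1303 bp.

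Pileup did not order the broad peaks by length. Across them Spearman's rho of length and pileup was 0.015 (n = 592), against 0.56 across the 20384 narrower peaks. Peaks of 1 list share both libraries, and the limits on length and pileup narrow the range over which the broad peaks can vary. The broad peaks had a median pileup of 57.2 and a range of 16.5 to 99.6, or 30 to 181 reads. The narrower peaks had a median of 33.0. Because the classes differ in pileup, narrower peaks were weighted, in pileup bins of 10, to the pileups of the broad peaks, and every comparison with narrower peaks of like pileup below uses these weights.

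The broad peaks with the fewest reads show how low a summit can be over a long stretch. The lowest was on chromosome 22 from 37464862 to 37465884, 1023 bp long, with 30 reads (20.2 to 42.8), a pileup of 16.5. Its fold was 4.68 and its control background 2.75. A pair followed with 32 reads each (21.9 to 45.2). One was on chromosome 16 between 852241 and 853374 and had a fold of 5.03. The other was on chromosome X between 1537524 and 1538810 and had a fold of 3.72. On chromosome 2, a peak of 2001 bp between 10275238 and 10277238 had 33 reads and a fold of 4.38. The fifth was on chromosome X from 38662633 to 38663812, with 40 reads and a fold of 3.84. Control background was low at each of the 5, between 2.70 and 5.00, against a median of 9.68 over all broad peaks. This is not particular to them, since background was also low in narrower peaks of such pileups. Its median there was 3.60 in the pileup bin of 10 to 20 and 6.97 in the bin of 20 to 30.

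Taken over all pileups, fold enrichment of broad peaks was close to that of narrower peaks with like summits. By pileup bin the medians differed most at 20 to 30, with 4.72 in 30 broad peaks against 3.41. At 90 to 100 they were 7.86 against 7.85, and at 60 to 70 that of the broad peaks was lower, 5.69 against 5.84. Weighting to like pileup also makes the numerator of fold alike. Over all broad peaks the median fold was 5.40 (5.18 to 5.56) against 5.16, a ratio of 1.05. The median control background was 9.68 (9.0 to 10.0) against 10.0. A fold of at least 5 was reached by 347 of the 592 broad peaks (58.6%), against 25% of all peaks on these chromosomes and 52.9% of narrower peaks of like pileup. Fold and pileup come from the same comparison as the rule, and nothing is read from these shares. A fold of 10 was reached by 19 broad peaks, 3.21% against 4.25% of narrower peaks of like pileup.

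The highest fold, 28.2, belonged to the 1324 bp peak on chromosome 17 from 212916 to 214239. It had 180 reads, a pileup of 99.05, over a background of 2.54. The next was on chromosome 13 from 114964115 to 114965242, 1128 bp long, with a fold of 14.3. It had only 79 reads (62.5 to 98.5), and its background of 2.12 was the lowest among the broad peaks. The lowest background among the narrower peaks was also 2.12. Whether this value is a floor set by the caller, which would limit the fold, was not tested. On chromosome 2, a peak between 174739088 and 174740185 had 165 reads and a fold of 11.8. A fold of 11 was reached on chromosome 11 between 69064102 and 69065626, with 171 reads, and on chromosome 21 between 46418798 and 46420145, with 153 reads. The first pair thus stood on backgrounds far below the median of the class, and the other 3 on 6.75 to 7.65.

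The summit of a broad peak usually lay away from its centre. The median distance from centre to summit was 241 bp (223 to 257), or 40.5% of the half-length (38.0 to 43.0). In narrower peaks of like pileup it was 36.5 bp, or 15.4% of the half-length. The summit was more than 225 bp, 1 extended read, from the centre in 316 broad peaks (53.4%, Wilson 95% interval 49.4 to 57.4) against 1.2% of narrower peaks of like pileup. Such a distance needs a half-length above 225 bp, which many of the shorter peaks lack. The median length of the narrower peaks, weighted to like pileup, was 506 bp. Relative to the half-length, 32.8% of broad peaks (29.1 to 36.7) had the summit more than 50% of the way from centre to edge, against 5.00%. Only 12% (9.62 to 14.9) had it within 10% of the half-length from the centre, against 34.8%.

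The distribution of summit positions had a different form in each class. Narrower peaks had a single maximum at the centre. Broad peaks were most frequent on the flanks, with 9.12% of them between 50% and 40% of the half-length left of the centre and 8.95% in the matching interval to the right, against 6.59% and 5.41% in the 10% on either side of the centre. The sides were balanced, with 311 summits to the right, 280 to the left and 1 at the centre. The summit showed no lean toward the nearer flanking peak. Among 444 broad peaks that had a flanking peak within 10 kb of their edge and an off-centre summit, 218 (49.1%, 44.5 to 53.7) had the summit on that side, against 48.0% of narrower peaks of like pileup.

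**Figure D2:**
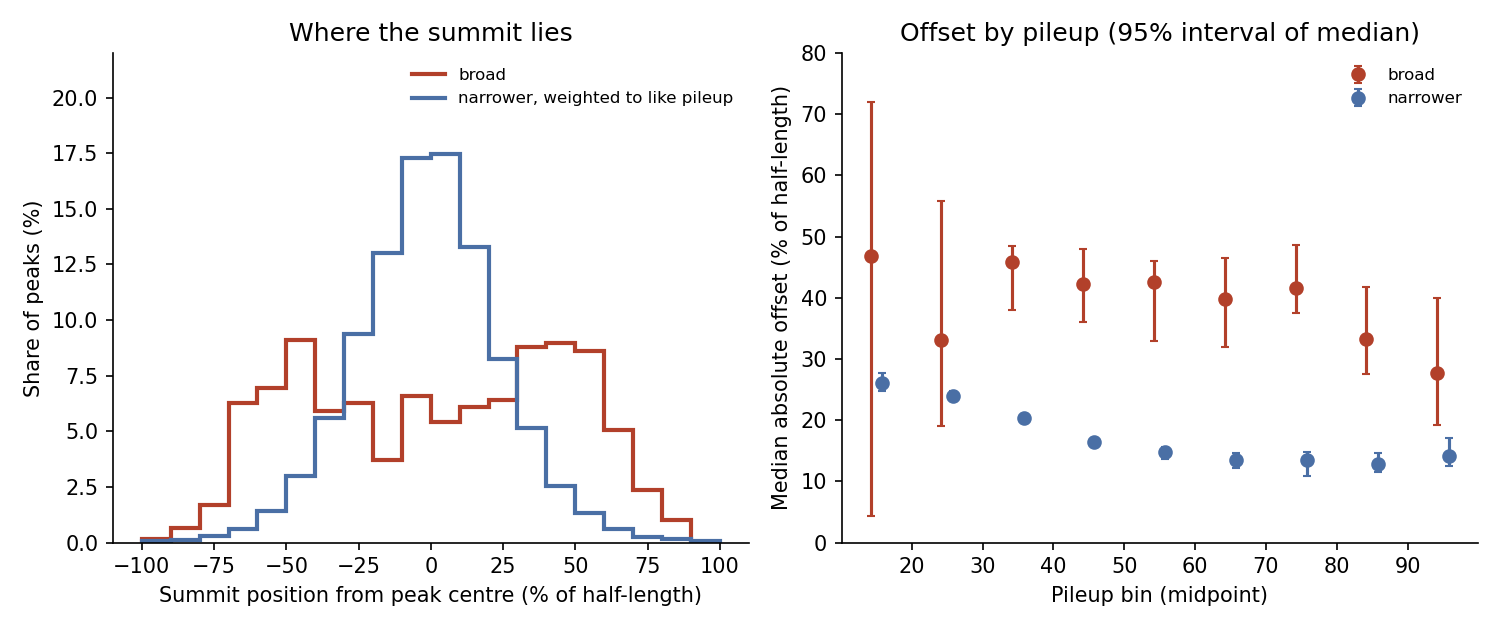
Left, the share of peaks (%) by position of the summit from the peak centre, in % of the half-length, for broad peaks and for narrower peaks weighted to like pileup. Right, the median absolute offset (% of half-length) by pileup bin, with 95% binomial intervals of the median: the broad peaks lie between 27.7% and 46.9%, the narrower ones between 12.8% and 26%.

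The offset was larger in broad peaks across pileups, although the intervals overlapped in the thinly filled lowest bins. In the bin of 30 to 40, with 92 broad peaks, the median offset was 45.8% of the half-length (38.0 to 48.5) against 20.3% in narrower peaks. In the bin of 90 to 100, with 44, it was 27.7% (19.3 to 39.9) against 14.2%. The difference was graded in length and did not begin at 1000 bp. With pileups weighted alike, the median was 10.8% in peaks of 225 to 499 bp, 19.2% at 500 to 749 bp, 28.2% at 750 to 999 bp, 37.7% at 1000 to 1249 bp and 47.4% at 1250 to 1499 bp. It was 47.3% at 1500 to 1999 bp and 48.6% above that, so no further increase was seen past 1250 bp. The 93 long peaks at or above the pileup ceiling had a median offset of 32.5% (26.6 to 37.1), below the interval of the broad peaks.

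The most eccentric summit was in a 1553 bp peak on chromosome 16 from 56715958 to 56717510, at 90.1% of the half-length. Its summit, with 85 reads, lay at 56716034, near the left border. The next reached 84.1% on chromosome 5 between 138719744 and 138721218, and 84.0% on chromosome 12 between 6642564 and 6643940. Those after them reached 83.7% on chromosome 22 between 48971947 and 48974253, and 83.3% on chromosome 13 between 50698003 and 50699359. These 5 had folds of 2.74 to 4.29, under the median of the class, and from 2 to 7 other summits within 10 kb. The chromosome 22 peak lay next to the widest broad peak, 845 bp to its left, with its summit toward it.

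Broad peaks tended to lie among other PAX5 peaks. Another summit lay within 10 kb of 440 of the 592 (74.3%, Wilson 95% interval 70.7 to 77.7), against 56.0% of narrower peaks of like pileup, a difference of 18.3 percentage points. At least 3 summits lay within 10 kb of 166 broad peaks (28% against 12.6%) and at least 5 of 62 (10.5% against 2.58%). The mean number was 1.84 against 1.06, a ratio of 1.74. At the other end, 24 broad peaks (4.05%, 2.74 to 5.96) had no other summit within 100 kb, against 8.56%. These isolated broad peaks had lengths up to 2331 bp and a median fold of 5.42, near that of all broad peaks.

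**Figure D3:**
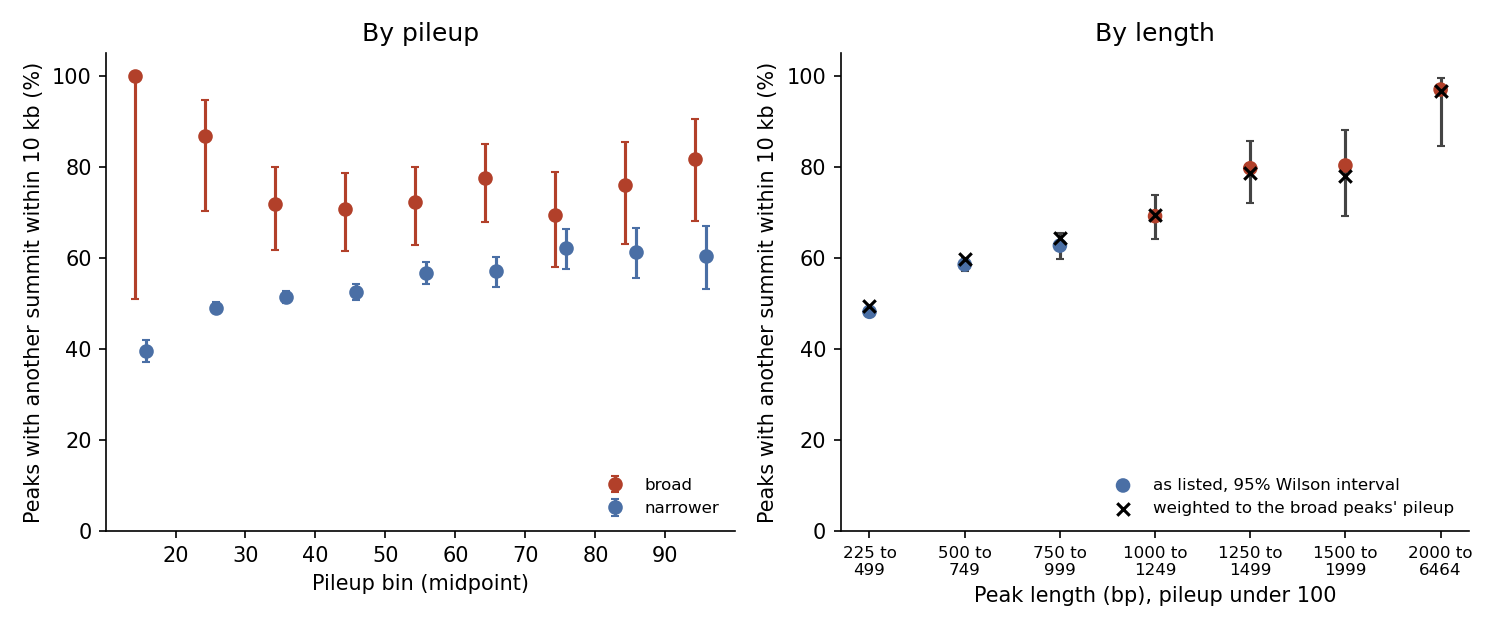
Share of peaks (%) with another summit within 10 kb, by pileup bin (left, broad and narrower peaks) and by length in bp for peaks of pileup under 100 (right, red from 1000 bp, crosses weighted to the pileups of the broad peaks), with 95% Wilson intervals. The share climbs from 48.2% at 225 to 499 bp to 97.0% at 2000 bp and above.

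The share with a neighbour was higher in broad peaks in each of the 9 pileup bins, from 69.4% against 62.1% in the bin of 70 to 80 to 86.7% against 49.1% in the bin of 20 to 30, and 4 of 4 against 39.6% in the lowest bin. In the bin of 70 to 80 the interval of the broad peaks (58.0 to 78.9) held the share of the narrower ones. The share also climbed with length on both sides of 1000 bp. It was 64.4% at 750 to 999 bp with pileups weighted alike, 69.3% at 1000 to 1249 bp and 78.6% at 1250 to 1499 bp. At 1500 to 1999 bp it was 78.0%, no higher than in the length bin before. Of the 33 peaks of at least 2000 bp, 32 had a neighbour. The exception, named after its value was seen, was a 2331 bp peak on chromosome 9 between 126100177 and 126102507, with 156 reads and a fold of 9.54.

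The density of peaks was also higher farther out. Between 10 and 100 kb from the summit, broad peaks had a mean of 6.55 other summits against 4.62, a ratio of 1.42, smaller than the 1.74 within 10 kb. Among peaks with 1 to 2 summits at 10 to 100 kb, 66.7% of broad peaks (57.5 to 74.7) had one within 10 kb against 44.0% of narrower peaks of like pileup. Among peaks with 10 or more, the shares were 88.5% (82.4 to 92.7) and 75.1%. Weighted to both like pileup and like regional density, the difference fell from 18.3 to 13.1 percentage points.

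Many broad peaks were continued by another called peak after a short gap. The next peak began within 500 bp of an edge in 141 broad peaks (23.8%, 20.6 to 27.4), against 11.1% of narrower peaks of like pileup. In 31 the gap was under 100 bp, the smallest being 53 bp, and 18 had such a neighbour within 500 bp on both sides. Where the caller ended a region thus decided in part which peaks count as broad. When peaks with gaps of up to 500 bp were joined, 1319 regions reached 1000 bp with every summit under the ceiling. Of these, 576 held a broad peak, and 743 were made of narrower peaks alone.

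Broad peaks also had other broad peaks near them. Of the 592, 91 (15.4%, 12.7 to 18.5) had another within 10 kb, whereas 4.19% of narrower peaks of like pileup had a broad peak that near. The 91 fell into 33 pairs, 7 runs of 3 and 1 run of 4. The run of 4 was on chromosome 20 from 61443227 to 61457957 and contained the next widest peaks after that of chromosome 22. Its members measured 1375, 2356, 5634 and 3671 bp and together covered 13036 of 14731 bp. Their pileups were 22.6, 25.3, 40.2 and 73.2 from left to right, and their folds stayed between 5.30 and 7.08. The control background also differed, from 3.0 under the first pair to 13 under the last.

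Runs of 3 differed in strength. On chromosome 6 from 27832999 to 27841658, peaks of 2536, 1573 and 1208 bp had folds of 4.84, 3.68 and 9.99. On chromosome 7 from 26221956 to 26228521, peaks of 1524, 1671 and 1698 bp had pileups of 23.1 to 33.6 and folds of 4.57 to 5.81. On chromosome 9 from 37032488 to 37037948, peaks of 1021, 1425 and 1358 bp had 53, 55 and 60 reads and folds of 3.37, 2.84 and 3.65. The counting intervals of the 3 chromosome 9 summits overlapped (39.7 to 69.3, 41.4 to 71.6 and 45.8 to 77.2). Each had 8 other summits within 10 kb, so that this stretch combined many summits with low ones.

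The largest number of neighbours, 9 summits within 10 kb, was around a 1083 bp peak on chromosome 22 from 29195732 to 29196814. It had 61 reads and a fold of 2.88. To its left lay 7 of these neighbours, one of them a 2362 bp broad peak between 29187681 and 29190042, which had 140 reads, a fold of 6.0 and 8 neighbours of its own. The nearest stronger summit to the right, 1988 bp away, held 122 reads in a 717 bp peak. Peaks of many lengths and strengths stood side by side in such stretches, as the map of called peaks around 4 broad peaks shows.

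**Figure D4:**
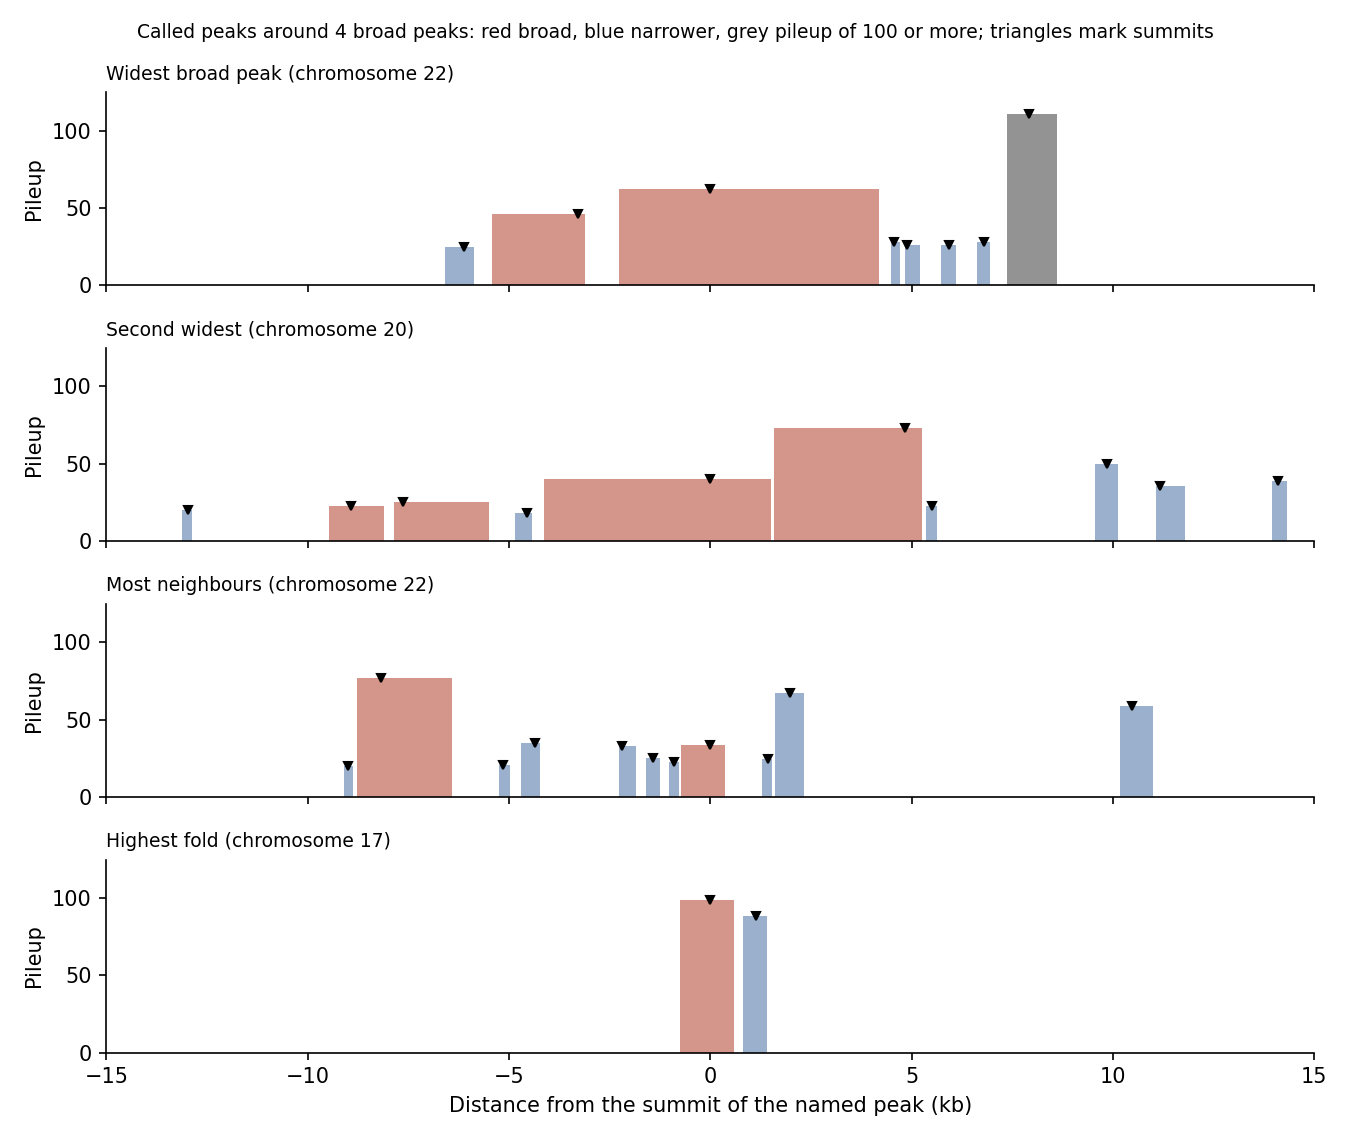
Called peaks within 15 kb of the summits of 4 broad peaks: the widest, the second widest, the one with most neighbours and the one of highest fold. The x axis is the distance from the summit of the named peak in kb, bars span each called peak at the height of its summit pileup, and triangles mark summits. The chromosome 20 row holds 4 broad peaks, and the chromosome 17 peak of highest fold has 1 neighbour, a 590 bp peak with a pileup of 88.6.

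The chromosomal spread of broad peaks mostly followed that of narrower peaks, with 5 chromosomes apart. In 18 of 23 chromosomes the 95% Wilson interval of the share of broad peaks held the share of narrower peaks of like pileup. With 23 chromosomes compared and no adjustment, some intervals would miss it by counting error alone. Chromosome 16 held 47 broad peaks, 7.94% (6.02 to 10.4) against 4.53%, a ratio of 1.75. Chromosome 6 held 45, 7.6% (5.73 to 10.0) against 5.28%, a ratio of 1.44. Both chromosomes had a few bins of 1 Mb that held 5 or more broad peaks each. Without its 2 such bins, chromosome 6 held 27 broad peaks, 4.70% against 5.15%, a ratio of 0.914. Without its 3 such bins, chromosome 16 held 29, 5.05% against 4.09%, a ratio of 1.24. The bins were chosen by the counts that form the ratio, so a fall was bound to follow and nothing is read from it. These 2 chromosomes were chosen for this after their counts were seen, and no other chromosome was treated so. Chromosome 3 held 18, 3.04% (1.93 to 4.75) against 5.54%, and chromosome 4 held 11, 1.86% (1.04 to 3.30) against 3.72%, ratios of 0.549 and 0.50. Counted per Mb, broad peaks ranged from 0.0577 (0.0288 to 0.103) on chromosome 4 to 0.710 (0.455 to 1.06) on chromosome 22, with a median of 0.182.

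**Figure D5:**
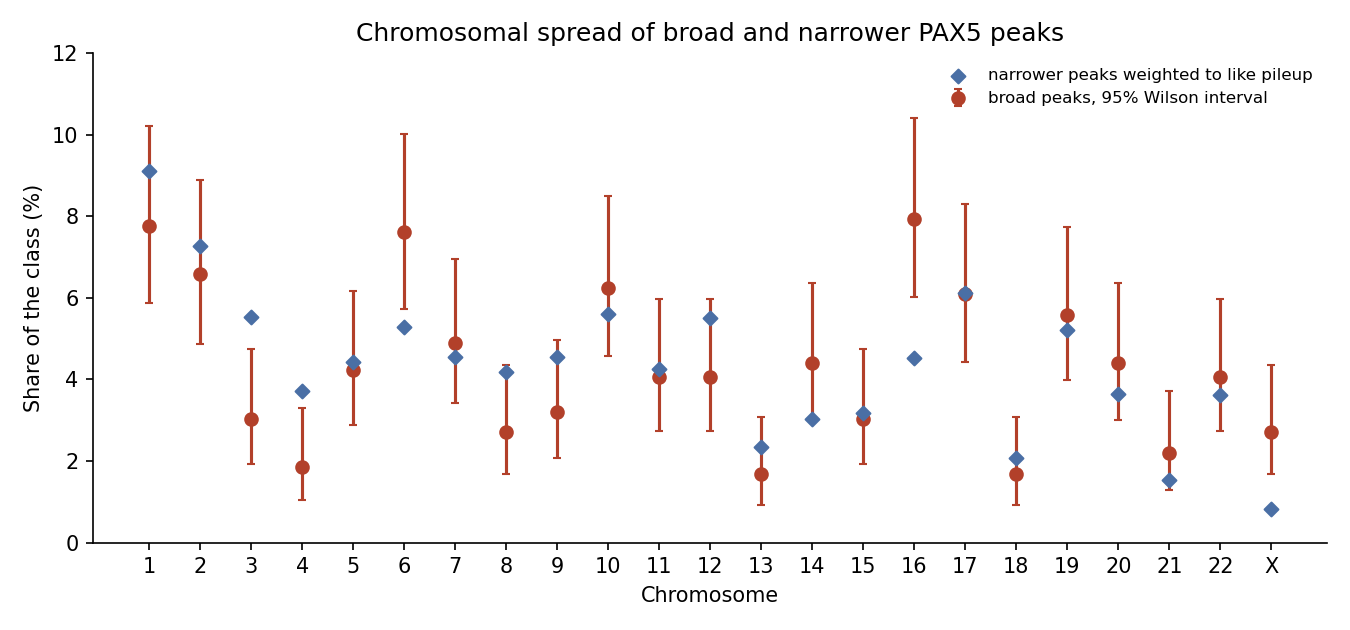
Share (%) of broad peaks on each chromosome with 95% Wilson intervals, and the share of narrower peaks weighted to like pileup as diamonds. Chromosomes 6, 16 and X lie above the diamond with the whole interval, and chromosomes 3 and 4 below it.

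Chromosome X gave the highest ratio, 3.26 (2.01 to 5.23), with 16 broad peaks. They made up 2.70% of the class against 0.830% of narrower peaks of like pileup. Peaks of X carry fewer reads in both libraries. The median pileup of X peaks under the ceiling was 24.8 and their background 4.5, against medians of 32.5 to 34.7 and 7.88 to 8.55 on the autosomes, so that weighting by pileup leaves few X peaks for comparison. Without weighting, X held 1.83% of the narrower peaks, and 4.08% (2.53 to 6.53) of the X peaks were broad, against 2.78% on all 23 chromosomes. Weighted by −log10 q in place of pileup, the ratio was 1.81. The part of read depth in this ratio was not tested otherwise. The 16 X peaks had pileups of 17.6 to 55.6, a median fold of 5.19 and a median offset of 27.9% of the half-length. A neighbour lay within 10 kb of 14 of them, against 74.3% of all broad peaks. In the pileup bin of 20 to 30, the share was 86.7% of broad peaks on all chromosomes.

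The 592 broad peaks fell into 379 bins of 1 Mb, of which 259 held 1 and 22 held at least 4. The fullest bin was on chromosome 6 from 26000001 to 27000000, where 11 of 39 peaks were broad (28.2%, against 2.78% on all chromosomes). The next bin on that chromosome, from 27000001 to 28000000, had 7 of 37. These bins were chosen by their counts, which are a description. Their 18 broad peaks measured 1004 to 2536 bp, with pileups of 28.1 to 65.5 and folds of 2.42 to 9.99, a median of 5.45 near that of all broad peaks. They were 18 of the 45 broad peaks of chromosome 6. On chromosome 16, the bins from 1 to 1000000 and from 88000001 to 90000000 held 18 of the 47 broad peaks of that chromosome, all with a neighbour within 10 kb. These bins held 46, 55 and 50 peaks of any length. The share of their narrower peaks with a neighbour was not computed.

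Other full bins were on chromosome 20 from 61000001 to 62000000, with 7 broad peaks of 52 peaks, chromosome 22 from 23000001 to 24000000, with 6 of 46, and chromosome 2 from 232000001 to 233000000, with 6 of 34. On chromosome 9, the bin between 139000001 and 140000000 had 4 broad peaks among 69 (5.80%, against 2.78% of all peaks on these chromosomes). Broad peaks were also more frequent near chromosome ends. Within 5 Mb of an end lay 157 of them (26.5%, 23.1 to 30.2), against 19.5% of narrower peaks of like pileup. Among the 93 long peaks at or above the pileup ceiling the share was 33.3% (24.6 to 43.4), an interval that overlaps that of the broad peaks.

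The longest broad peak was also taken on each chromosome with at least 30 of them. On chromosome 6 it was 2581 bp long, from 32811180 to 32813760, with 96 reads and a fold of 3.59, and lay outside the 2 full bins. On chromosome 1 it was 2568 bp long, from 167597109 to 167599676, with 116 reads and a fold of 5.20, and its summit lay at 74.0% of the half-length. That of chromosome 19 was 2398 bp long, from 51296848 to 51299245, with a fold of 3.71. Chromosomes 2, 16, 10 and 17 had longest peaks of 2135, 2086, 1981 and 1764 bp with folds of 6.72, 5.89, 3.99 and 6.51. The longest peaks of these 7 chromosomes thus ranged in fold from 3.59 to 6.72, on both sides of the class median of 5.40.

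The long peaks with stronger summits were also set beside the broad peaks. Of the 93 at or above the pileup ceiling, 72.0% (62.2 to 80.1) had a summit within 10 kb and 17.2% (10.9 to 26.1) had a broad peak there, with intervals that overlap those of the broad peaks. All 592 broad peaks were in the cleaned peak list with identical borders, as were 92 of these 93. So were 20375 of the 20384 narrower peaks, so this does not set the broad peaks apart.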

How the data were processed

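Per the submitters' processing notes, BWA was used for alignment and hg19 as the build. Peaks were called with MACS2 version 2.1.1.20160309 at a q-value threshold of 0.05 with reads of 50 bp extended to 225 bp, per the file headers, from 46190180 ChIP and 25416858 control tags. The deposited pileup signal is scaled by 0.550 to the control's depth. The deposited fold is the ratio of that pileup to the control's local background, with a pseudocount of 1 added to each. The deposited −log10 p and −log10 q values are the caller's. The step that cleaned the second deposited list was not described. Such a pool hides differences between its libraries, and called lengths depend on depth and threshold.

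Reads at a summit were recovered by dividing pileup by the scale (100% whole within 0.006 pileup units), and the background from fold and pileup with the caller's pseudocount of 1. Offset is the distance of the summit from the peak's midpoint as a share of the half-length (midpoint to edge). Narrower peaks were weighted in pileup bins of 10. Shares carry Wilson 95% intervals, medians binomial ones, and reads and densities exact Poisson ones, all for counting error. A chromosome's right end was taken at its last listed peak, and its left end at base 1 (not used on chromosomes 13, 14, 15, 21 and 22). Named peaks are the 5 widest, of highest fold, of largest relative offset, of lowest pileup and of most neighbours, the 3 on either side of each limit, and the longest on chromosomes with at least 30 broad peaks. Other peaks (the runs and full bins) were named after their values were seen. The members and lists were chosen with earlier results of these data known. The scripts, tested on simulated data, ran in Python 3.11.15 (scipy 1.17.1, numpy 2.4.6, matplotlib 3.10.9, pandas 2.3.3). Planned counts of motifs and transcription starts were not made, since no hg19 sequence or annotation was used here.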

Additional observations from a re-analysis of the deposited data

How the results depend on the processing

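The number of broad peaks was 1300 with a minimum of 800 bp, 99 with 1500 bp and 333 with a pileup ceiling of 60. The neighbour difference of 18.3 percentage points kept its direction in all 16 alternatives. It was 14 with a minimum of 800 bp, 30.1 with 1500 bp, 24.9 against peaks under 500 bp, 9.88 against peaks of 750 to 999 bp, 8.74 within 50 kb and 13.1 with regional density also weighted. The difference in relative offset, 25.1% of the half-length, was 20.05 with a minimum of 800 bp, 31.6 with 1500 bp, 29.7 against peaks under 500 bp and 12.2 against peaks of 750 to 999 bp. In bp it was 205. The fold ratio of 1.05 was 1.09 with a minimum of 1500 bp, 1.11 with a ceiling of 60 and 1.08 against peaks under 500 bp, and it reversed to 0.959 when peaks were weighted by −log10 q. The background ratio of 0.968 was 0.900 with a minimum of 1500 bp and 1.16 when weighted by −log10 q. The highest chromosome ratio, 3.26 on X, was 1.81 when weighted by −log10 q, and 1.79, on chromosome 16, with autosomes only. It was also not on X with a minimum of 1500 bp (2.30, chromosome 6) and against peaks of 750 to 999 bp (2.16, chromosome 16). The causes were not tested. The comparisons with peaks of 750 to 999 bp, with regional density and with autosomes only were chosen after seeing the data. Alternatives on motifs and transcription starts were not run. Depth limits where an enriched region ends, and the pool gives no spread between libraries. No paired analysis was possible because the ChIP and the control form 1 comparison.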
